A study of Mus musculus with 4 samples.

Results

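Amino acid transporters of the SLC1, SLC3, SLC6, SLC7, SLC36, SLC38 and SLC43 families were followed in mouse mammary epithelial cells depleted of the glucocorticoid receptor (GR). Their genes were chosen by name alone: all probes on the array, control spots apart, whose gene name begins with Slc, the number of one of these families, the letter a and a digit were taken, with Slc6a20a and Slc6a20b left out. This gave 108 of the 41174 probes on the array, and 59 of its 28146 gene names. One of the 59 names, Slc7a6os, fits the pattern but is not a transporter. The 2 cell lines compared were EV-50, which carries the empty H1-2 vector and served as the control, and shGR-19, which carries an shRNA vector against GR. Both are stable clones of EPH-4, a non-malignant mouse mammary epithelial line, and both carry a puromycin selectable marker, were grown in serum-free medium with 2 µg/ml puromycin, and received no glucocorticoid. Each line is 1 clone, so that differences between clones and differences that follow from GR depletion cannot be told apart. RNA of each line was hybridized to 2 one-colour Agilent Whole Mouse Genome arrays, with 300 ng of RNA labelled for each, and the spread between the duplicates may be technical.

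Amino acids cross membranes through carrier proteins that differ in their substrates and in what drives them. The heteromeric exchangers consist of a heavy chain from the SLC3 family, which brings the complex to the cell surface, and a light chain from the SLC7 family, which carries the substrate. Most members of SLC1, SLC6 and SLC38 couple uptake to sodium, several SLC36 members use protons, and the cationic SLC7 and the SLC43 carriers need neither. The mammary epithelium draws on such carriers for the amino acids of milk protein, and several of their genes are known targets of the amino acid response, in which the transcription factor ATF4 acts on genes of amino acid uptake and synthesis when amino acids run short.

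The values exist in 2 forms, which do not match. The authors deposited scanner files with the intensity of every spot, used here on a log2 scale after scaling each array to its 75th percentile, and a table of log2 values centred on the median of each probe over the 4 columns, which holds differences and no levels. In the value table, columns of 1 line differed little: over the 24443 probes kept, those that 1 line or both had well above background on its 2 arrays, the difference between columns had an SD of 0.313 in EV-50 and of 0.318 in shGR-19. In the scanner files the arrays of 1 line lay farther apart, with SDs of 0.691 (EV-50) and 0.730 (shGR-19), than the arrays of the same replicate number in the 2 lines, with 0.376 for replicate 1 and 0.569 for replicate 2. The gene that encodes GR, Nr3c1, differed in the value table on each of its 4 probes, with less RNA in shGR-19, by log2 differences of -1.41 to -1.94 (adjusted p of 0.00216 to 0.00539). On the scanner arrays labelled replicate 2 the same probes differed by -1.47 to -1.95, and on those labelled replicate 1 by only -0.20 to -0.35. The direction of the value table is thus that of its labels, and whether its columns were made from the arrays of the same label is not known. Between 23290 and 27358 spots were well above background on an array, and epithelial keratins Krt8 and Krt18 were well above background on all 4 arrays.

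The probes behind the results below are shown first, since the array reads a transcript only through its own stretch of it. Each probe has 60 bases, of which the first 30 are given for the genes of the 2 main exchangers and for the genes that passed the test, with the position of the whole probe in mm9, the build of the array's annotation, and no base in capitals.
Slc3a2 (chr19:8782189-8782248, minus strand): gagggcttgctgttacagttcccctttgtg
Slc7a5 (chr8:124405142-124405201, minus strand): agtgctgtggttgtaatgtcttttactatt
Slc7a11, brightest probe (chr3:50169700-50169759, minus strand): agtaatgtatcaggagctttatgtaaatgt
Slc7a11, second probe (chr3:50170338-50170397, minus strand): tgcaaccaaaattttaactaggttcttctt
Slc7a4 (chr16:17573432-17573491, minus strand): agccattggagctgactacagcacactacg
Slc1a5 (chr7:17383359-17383418, plus strand): cctaccctctcaggaaatgggttgtcctgt
Slc38a2, brightest probe (chr15:96518491-96518550, minus strand): aaggttccaaatgaatttcaggccaaattc
Slc38a2, second probe (chr15:96520136-96520195, minus strand): ttgaatgtgcctaacggaaccattcgatgt

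Promoter windows from RefSeq (GRCm38.p6), which run from 250 bases before a start of transcription to 50 after it, were at hand for 41 of the 59 genes, as 61 windows. They were searched on both strands for TGATGNAA, the core of the amino acid response element, and for TGTTCT, a 6-base arm of the palindrome that GR binds, and matches to the 2 did not overlap in the windows printed. TGATGNAA was found in 4 of the 61 windows, of the genes Slc1a4, Slc7a7 and Slc7a11, and in 3.97% of all 32851 windows of the table. TGTTCT was found in 12 of the 61 and in 19% of all windows. Windows of a gene can overlap and share a match. Counted by gene, TGATGNAA was held by 3 of the 41 members and by 1219 of all 27025 genes. For TGTTCT the counts were 8 of 41 and 5750 of 27025. The 250 bases before the start are printed for 4 genes treated below: Slc7a11 and Slc7a7, which hold both motifs and had opposite signs in the value table, Slc7a1, which holds 1, and Slc38a2, which holds neither. Capitals mark the matches. In Slc7a11 these begin at positions -185 for TGTTCT, and -66 and -47 for the 2 strands of TGATGNAA, counted from the start, in the window of Slc7a7 at -243 for TGATGNAA and -209 for TGTTCT, and in Slc7a1 at -75. Slc7a7 and Slc7a1 have other windows, at other starts, that are not printed, and the other window of Slc7a1 holds neither motif before its start.
Slc7a11 (chr3:50443614-50443863, minus strand): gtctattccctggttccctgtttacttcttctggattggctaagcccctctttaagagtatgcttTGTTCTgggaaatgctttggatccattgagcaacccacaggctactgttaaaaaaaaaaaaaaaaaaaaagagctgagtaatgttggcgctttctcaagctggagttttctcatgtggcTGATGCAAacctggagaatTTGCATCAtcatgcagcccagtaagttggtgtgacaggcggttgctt
Slc7a1 (chr5:148392816-148393065, minus strand): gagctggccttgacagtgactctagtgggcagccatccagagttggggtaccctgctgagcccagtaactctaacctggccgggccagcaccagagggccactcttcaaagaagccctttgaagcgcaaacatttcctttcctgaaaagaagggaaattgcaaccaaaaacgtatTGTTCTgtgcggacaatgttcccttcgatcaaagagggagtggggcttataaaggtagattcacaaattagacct
Slc38a2 (chr15:96699729-96699978, minus strand): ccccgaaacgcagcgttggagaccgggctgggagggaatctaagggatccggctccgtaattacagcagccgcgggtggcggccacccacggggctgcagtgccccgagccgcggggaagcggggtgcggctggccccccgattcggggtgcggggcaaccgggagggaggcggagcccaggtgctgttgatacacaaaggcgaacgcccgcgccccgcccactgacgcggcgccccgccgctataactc
Slc7a7 (chr14:54417703-54417952, minus strand): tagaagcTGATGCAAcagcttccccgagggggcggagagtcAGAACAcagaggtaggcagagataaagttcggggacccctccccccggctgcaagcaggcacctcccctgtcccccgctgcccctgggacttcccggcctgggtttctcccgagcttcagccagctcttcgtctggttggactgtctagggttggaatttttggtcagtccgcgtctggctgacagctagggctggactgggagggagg
A match describes these letters alone and shows neither binding nor control.

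In the value table, 4 of the 40 genes with a kept probe differed between the lines at an adjusted p below 0.01. Slc7a5, the leucine and large neutral amino acid exchanger, rose 2.01-fold in shGR-19. Slc7a4, a relative of the cationic carriers whose substrate is not established, fell by 4.38 on the log2 scale. Slc1a5, the sodium-dependent exchanger of glutamine and other neutral amino acids, fell by 0.65, and Slc38a2, a sodium-coupled carrier of small neutral amino acids, fell by 0.51. In whole RNA, fewer cells that express a gene and less of its RNA per cell cannot be told apart.

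Of the 59 kept probes, 1 was higher at this level, against 5.53% of all kept probes, and 3 were lower, against 6.04%. With a fold above 2 as well, 1 member probe was higher, against 1.87% of all probes, and 1 was lower, against 2.39%. At an adjusted p below 0.05, 14 member probes of 9 genes were higher, against 18.3% of all probes, and 11 of 9 genes were lower, against 18.2%. The 14 include the probe of Slc1a2, which was kept only through shGR-19, where it is high, and is no support for the count. The columns of the 2 lines did not overlap for 43 of the 59 probes, against 71.9% of all probes. Read as shares of the 59 probes, the members called came to 1.69% higher and 5.08% lower at the 0.01 level and to 23.7% higher and 18.6% lower at the 0.05 level. The median log2 difference was 0.044 over the 40 genes and 0.0087 over all kept probes, while the median size of the difference, without its sign, was 0.359 over the genes and 0.245 over all kept probes. No member and no other probe, 0% of those tested, was called in the scanner files at an adjusted p below 0.01 with limma. At an unadjusted p below 0.05 the scanner files gave 0 member probes, against 0.855% of all probes, and their arrays did not overlap between the lines for 10 of the 59 member probes, against 17.9%. All 4 calls in the value table were lost with all probes of the array kept in the fit, which called 43 of all 41174 probes.

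**Figure D1:**
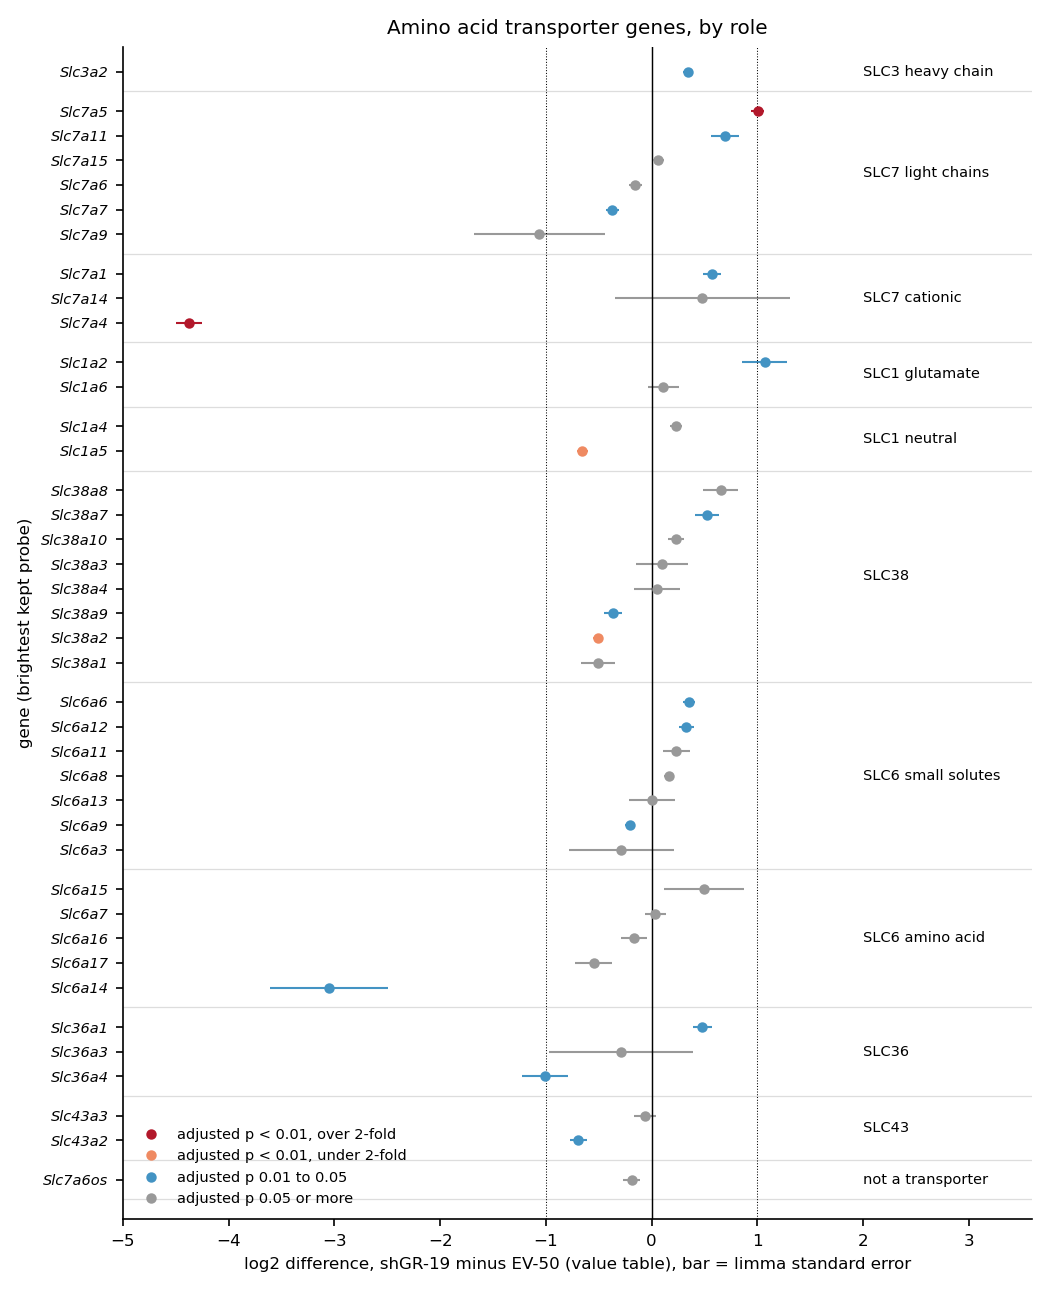
Log2 difference, shGR-19 minus EV-50, in the value table (horizontal axis, bars are limma standard errors, 2 columns per line) for the brightest kept probe of each of the 40 genes, ordered by role, with colours for the adjusted p and dotted lines at 2-fold. Slc7a4 and Slc6a14 lie farthest to the left, and the 36 genes that were not called spread to both sides of 0.

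The heavy chain Slc3a2 and the light chains Slc7a5 and Slc7a11 were each higher in both shGR-19 columns than in both EV-50 columns. Columns of the 2 lines stood apart, in either direction, for 71.9% of all kept probes. Only Slc7a5 passed the test. The light chains Slc7a6 and Slc7a7 were lower in both shGR-19 columns on their brightest probes, by -0.15 and -0.37, without passing. Slc3a2 encodes CD98, which pairs with Slc7a5 in the leucine exchanger and with Slc7a11 in the cystine and glutamate exchanger. The value table held -0.16 and -0.20 for Slc3a2 in the EV-50 columns and 0.17 and 0.16 in the shGR-19 columns. The lines did not overlap, and the difference of 0.35 ± 0.048 (SE, 2 columns per line) did not pass the 0.01 level (adjusted p = 0.0164). On the scanner arrays Slc3a2 read 5.89 and 6.09 in EV-50 and 5.96 and 6.46 in shGR-19, so that the arrays overlapped. A second kept probe of Slc3a2 differed by 0.28 (adjusted p = 0.0363).

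Slc7a5, or LAT1, exchanges leucine and other large neutral amino acids for glutamine. Its table values were -0.47 and -0.51 in EV-50 and 0.47 and 0.57 in shGR-19, a difference of 1.01 ± 0.060 (adjusted p = 0.00467). Both shGR-19 columns lay above both EV-50 columns. The same order was seen on the scanner arrays, with 2.92 and 3.003 in EV-50 and 3.27 and 3.87 in shGR-19. Scanner arrays of the lines did not overlap, in either direction, for 17.9% of all probes. The scanner pair labelled replicate 1 differed by 0.35 and that labelled replicate 2 by 0.87. With the columns of the table centred on the median of the kept probes, Slc7a5 no longer passed 2-fold, with a difference of 0.9998.

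Slc7a11, also known as xCT, imports cystine for glutathione synthesis in exchange for glutamate. In the table its brightest probe held -0.37 and -0.24 in EV-50 and 0.55 and 0.24 in shGR-19, without overlap, a difference of 0.69 ± 0.13 (adjusted p = 0.0310). The second probe differed by 1.24 (adjusted p = 0.0113), which is a fold of 2.36, and the remaining kept probe, not well above background on either EV-50 array, by 0.61 (adjusted p = 0.0630). None of the 3 passed the 0.01 level. All 3 had the same sign, but the remaining probe was kept only through shGR-19, where it is high, and is no support. The brightest probe read -1.33 and -2.78 on the EV-50 scanner arrays and -0.89 and -1.79 on the shGR-19 arrays, where the duplicates of each line lay farther apart than the means of the lines.

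Of the 6 light chain genes with a kept probe, 1 was called, and differences ran from -1.06 to 1.01. The lowest, at an adjusted p of 0.265, was that of Slc7a9, which serves cystine and cationic amino acids with the heavy chain Slc3a1. Slc7a7, the exporter of cationic amino acids, differed by -0.37 (adjusted p = 0.0210). Slc7a6 and Slc7a15 differed by -0.15 and 0.07, with 0.096 (adjusted p = 0.189) on the other kept probe of Slc7a6.

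**Figure D2:**
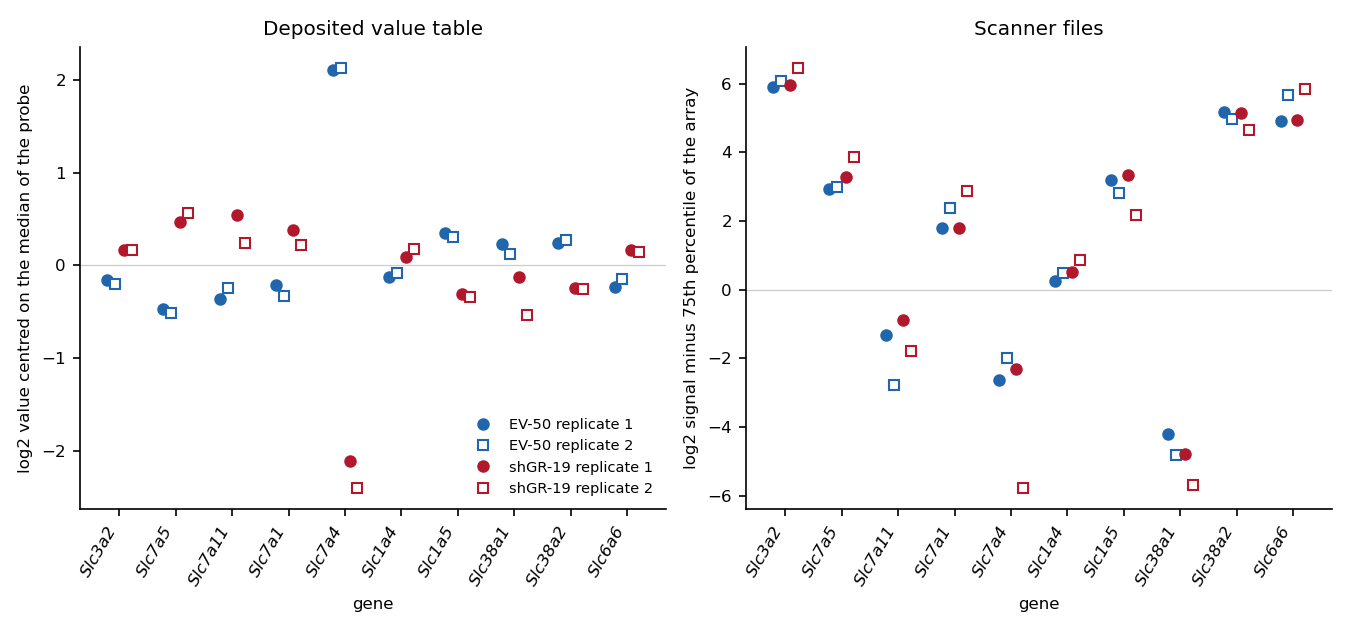
Values of 10 members on each array, as log2 values centred on the median of the probe in the value table (left) and as log2 signal relative to the 75th percentile of its array in the scanner files (right), with EV-50 in blue, shGR-19 in red, replicate 1 as filled circles and replicate 2 as open squares. Each gene is to be read by itself, since levels of different probes do not compare. At left the lines stand apart for all 10 genes, as they do for 71.9% of all kept probes. At right the replicate 1 arrays of Slc7a4 lie together at -2.64 and -2.32.

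Among the cationic carriers, Slc7a4 fell and Slc7a1 was not called. Slc7a1, or CAT1, is the main carrier of arginine and lysine in most cells. Its table values were -0.22 and -0.33 in EV-50 and 0.38 and 0.22 in shGR-19, a difference of 0.57 ± 0.087 that did not pass (adjusted p = 0.0198). The scanner arrays read 1.81 and 2.37 in EV-50 and 1.81 and 2.88 in shGR-19, and the replicate 1 pair differed by -0.00072.

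Slc7a4 gave the widest difference of all members. It held 2.11 and 2.13 in the EV-50 columns and -2.11 and -2.40 in the shGR-19 columns, a difference of -4.38 ± 0.12 (adjusted p = 0.00223), which is a fold of 20.8. The scanner arrays read -2.64 and -2.003 in EV-50 and -2.32 and -5.78 in shGR-19. Only the shGR-19 array labelled replicate 2 was low, and the 2 pairs differed by 0.32 and -3.77. The probe was well above background on all 4 arrays. The 10 kept genes on each side of Slc7a4 lie on chromosome 16 between 17148730 and 17902008 of mm9. Their median difference was 0.38, with 17 of 20 above 0, opposite in sign to Slc7a4. Over all kept probes, 12466 of 24443 were above 0. Neighbours taken in the same way for Slc7a5, Slc1a5 and Slc38a2 had medians of 0.16, 0.010 and -0.013. Of these, 12, 11 and 10 of 20 were above 0. Slc7a14, the other kept gene of the cationic group, differed by 0.48 ± 0.83 (adjusted p = 0.687), and by -0.63 (adjusted p = 0.601) on its other kept probe.

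Of the 2 neutral carriers of SLC1, Slc1a5 fell and Slc1a4 was not called. Slc1a5, or ASCT2, held 0.35 and 0.31 in the EV-50 columns and -0.31 and -0.34 in the shGR-19 columns, a difference of -0.65 ± 0.050 (adjusted p = 0.00633). On the scanner arrays it read 3.19 and 2.82 in EV-50 and 3.35 and 2.17 in shGR-19. The lines overlapped there, since the replicate 1 pair differed by 0.15 and the replicate 2 pair by -0.65. Slc1a4, or ASCT1, which carries serine, alanine and cysteine, held -0.12 and -0.09 in EV-50 and 0.09 and 0.17 in shGR-19, a difference of 0.23 ± 0.058 (adjusted p = 0.0538). Its scanner readings of 0.25 and 0.48 in EV-50 and 0.52 and 0.87 in shGR-19 did not overlap, and a second probe differed by 0.33 in the table (adjusted p = 0.0314). Of the glutamate carriers of SLC1, Slc1a2, well above background on 1 EV-50 array and on both shGR-19 arrays, differed by 1.07 ± 0.21 (adjusted p = 0.0338). It was kept only through shGR-19, where it is high, and its 4 other probes were well above background on no array. Slc1a6 differed by 0.11 (adjusted p = 0.594).

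The sodium-coupled neutral carriers of SLC38 held 8 kept genes, of which 1 was called. Slc38a2, or SNAT2, held 0.24 and 0.28 in the EV-50 columns and -0.24 and -0.25 in the shGR-19 columns on its brightest probe, a difference of -0.51 ± 0.048 (adjusted p = 0.00868). The 3 other kept probes of Slc38a2 differed by -0.64 (adjusted p = 0.0106), -0.26 (adjusted p = 0.0403) and -0.03 (adjusted p = 0.823). The 4 probes of this gene thus had 1 sign but unequal sizes. The brightest probe read 5.18 and 4.96 on the EV-50 scanner arrays and 5.13 and 4.66 on the shGR-19 arrays, which overlapped.

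Slc38a1, or SNAT1, a carrier of glutamine, held 0.23 and 0.12 in EV-50 and -0.12 and -0.53 in shGR-19, a difference of -0.51 ± 0.17 (adjusted p = 0.0939) that ranged from -0.71 without shGR-19 replicate 1 to -0.30 without shGR-19 replicate 2. Its scanner arrays read -4.19 and -4.82 in EV-50 and -4.78 and -5.68 in shGR-19, with 1 value of each line between those of the other. At the upper end, Slc38a8 differed by 0.65 (adjusted p = 0.0580) and Slc38a7, the glutamine exporter of the lysosome, by 0.52 (adjusted p = 0.0417). Slc38a8 was well above background on 1 EV-50 array and on both shGR-19 arrays, and was kept only through shGR-19, where it is high. Slc38a9, the lysosomal arginine sensor that acts on mTORC1, differed by -0.36 on its brightest probe (adjusted p = 0.0446) but by 0.077 (adjusted p = 0.299) and 0.17 (adjusted p = 0.481) on its other kept probes, and the mean of the 3 probes differed by -0.040. The median of the 8 genes was 0.076.

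No gene of SLC6 passed the 0.01 level. In the group that carries taurine, glycine, GABA, betaine, creatine and monoamines, 7 genes were kept and differences ran from -0.28 in Slc6a3 to 0.35 in Slc6a6. Slc6a6, the taurine transporter, held -0.24 and -0.15 in the EV-50 columns and 0.17 and 0.15 in the shGR-19 columns, a difference of 0.35 ± 0.057 (adjusted p = 0.0221). On the scanner arrays it read 4.92 and 5.66 in EV-50 and 4.96 and 5.85 in shGR-19, where the replicates of a line differed more than the lines did. Slc6a12, the betaine and GABA carrier, differed by 0.33 (adjusted p = 0.0420), and Slc6a9, a glycine carrier, by -0.20 (adjusted p = 0.0459).

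Among the 5 kept SLC6 genes for amino acids and orphan carriers, Slc6a14 had the second widest difference of all members. It encodes a carrier of broad range that takes up neutral and cationic amino acids with sodium and chloride. It held 1.13 and 1.24 in the EV-50 columns but -2.61 and -1.13 in the shGR-19 columns. The lines stood apart, the shGR-19 columns differed from each other by more than 2-fold, and the difference of -3.05 ± 0.56 did not pass (adjusted p = 0.0287). On the scanner arrays Slc6a14 read -3.57 and -3.35 in EV-50 and -3.42 and -5.29 in shGR-19, so that only the array labelled replicate 2 was low, as for Slc7a4. At the other end of this group Slc6a15, a carrier of neutral amino acids, differed by 0.50 ± 0.38 (adjusted p = 0.373). Both kept probes of Slc6a17, at -0.55 and 0.35, and of Slc6a7, at 0.04 and -0.08, had opposite signs, and none of them passed.

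The SLC36 and SLC43 carriers gave no call either. Slc36a1, the proton-driven amino acid carrier of the lysosome, differed by 0.48 (adjusted p = 0.0302) and Slc36a4 by -1.01 (adjusted p = 0.0400), with -0.81 (adjusted p = 0.179) on a second probe of Slc36a4. Of the kept probes of Slc36a3, which were well above background on both arrays in shGR-19 alone, the brightest differed by -0.29 (adjusted p = 0.773) and the other by 0.82 (adjusted p = 0.173). Slc43a2, a sodium-independent carrier of large neutral amino acids, differed by -0.69 ± 0.083 (adjusted p = 0.0127), and Slc43a3 by -0.06 (adjusted p = 0.681). The scanner pair labelled replicate 1 gave 1.79 for Slc43a2, against the sign of the table, and the pair labelled replicate 2 gave -0.64. Its probe was well above background on 1 EV-50 array and both shGR-19 arrays.

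Across the 40 genes, the median size of the difference between the scanner arrays was 0.162 in the replicate 1 pair and 0.301 in the replicate 2 pair, against 0.359 in the value table. Over all kept probes it was 0.0803 and 0.242, against 0.245 in the table. Each of the 4 called members had the sign of the table in the replicate 2 pair, as had 2809 of the 2827 probes called on the whole array, of which 1546 had it in the replicate 1 pair. In the replicate 1 pair Slc7a5 and Slc38a2 had that sign, with 0.35 and -0.04, while Slc7a4 and Slc1a5 did not, with 0.32 and 0.15.

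**Figure D3:**
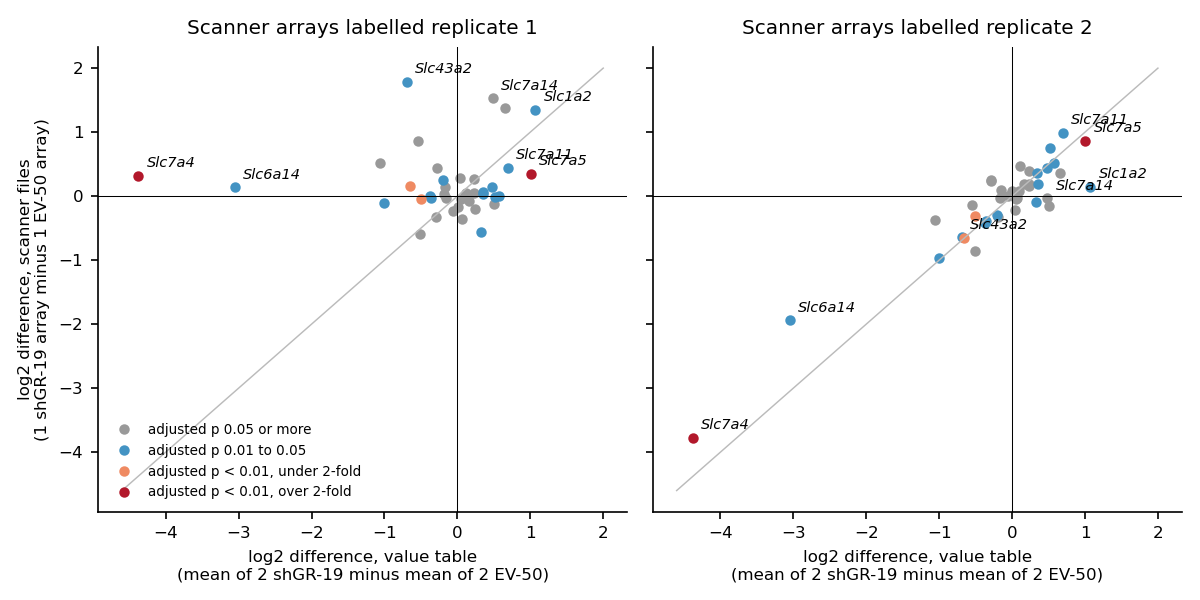
Log2 difference of the 40 genes between 1 shGR-19 array and 1 EV-50 array in the scanner files (vertical axis), for the arrays labelled replicate 1 (left) and replicate 2 (right), against the difference in the value table (horizontal axis), with a grey line of equal values and colours for the adjusted p in the value table. Slc7a4 lies at 0.32 at left and at -3.77 at right, while Slc7a5 lies above 0 in both.

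The other 19 genes had no kept probe. Of these, 11 were well above background on no array, among them Slc1a1, Slc1a3, Slc1a7, Slc3a1, Slc6a18, Slc6a19, Slc7a10, Slc36a2, Slc38a11 and Slc43a1. Slc6a2, Slc6a4, Slc7a2, Slc7a12 and Slc7a13 were so on 1 array, and Slc7a3, Slc7a8 and Slc38a5 on 2 arrays, 1 of each line. The name match Slc7a6os differed by -0.19 (adjusted p = 0.159).

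Genes around the transporters were taken from lists of the amino acid response, amino acid sensing, tRNA charging, amino acid metabolism and other carriers. Counts of these lists are to be read beside the 5.53% of all kept probes that were higher and the 6.04% that were lower at the same level. Among 27 kept genes of the amino acid response, 9 rose and 1 fell in the value table, with a median difference of 0.27 against 0.0087 over all kept probes. Those that rose more than 2-fold were Gpt2, an alanine aminotransferase, by 1.56 on the log2 scale (adjusted p = 0.00318), Ddit3, the stress factor CHOP, by 1.27 (adjusted p = 0.00462), Atf5, a bZIP factor, by 1.06 (adjusted p = 0.00412) and Nupr1, a stress-induced nuclear protein, by 1.05 (adjusted p = 0.00557). In the scanner pair labelled replicate 1 these 4 differed by 0.37, 0.42, 0.36 and 0.26, and in the pair labelled replicate 2 by 1.58, 1.13, 0.88 and 0.92. The gene that fell was Cebpb, a bZIP factor of mammary differentiation, by 0.81 (adjusted p = 0.00492). Atf4 itself, named after its value was seen, differed by -0.16 (adjusted p = 0.0964).

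Among 31 kept genes of amino acid sensing by mTORC1, 1 rose, Castor1, an arginine sensor, by 1.26 (adjusted p = 0.00395), and the median was -0.08. Of 20 aminoacyl-tRNA synthetases, 1 rose and 2 fell, none by 2-fold, and the median was -0.14, with 7 differences above 0 and 13 below. Of 23 kept enzymes of glutamine, proline, arginine, branched-chain and glutathione metabolism, 5 rose and 2 fell, with Ass1, which makes argininosuccinate on the way to arginine, the only one past 2-fold, at 1.39 (adjusted p = 0.00332). The 16 other kept carriers of amino acids and peptides held 3 genes that rose and 1 that fell. Slc25a29, a mitochondrial carrier of basic amino acids, rose by 2.62 (adjusted p = 0.00305). Slc15a2, a peptide carrier, differed by 3.06 (adjusted p = 0.00828) and Slc16a10, a carrier of aromatic amino acids, by 2.80 (adjusted p = 0.00173). Slc25a18, a mitochondrial glutamate carrier, fell by 1.75 (adjusted p = 0.00492). Slc15a2 and Slc16a10 were well above background on 1 of the 2 EV-50 arrays and were kept only through shGR-19, where they are high, so that their place among the genes that rose is no support for the list. In the scanner pair labelled replicate 1 Slc16a10 differed by -1.29. No gene of these lists was called in the scanner files, where 0 of all 24441 probes tested were called.

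**Figure D4:**
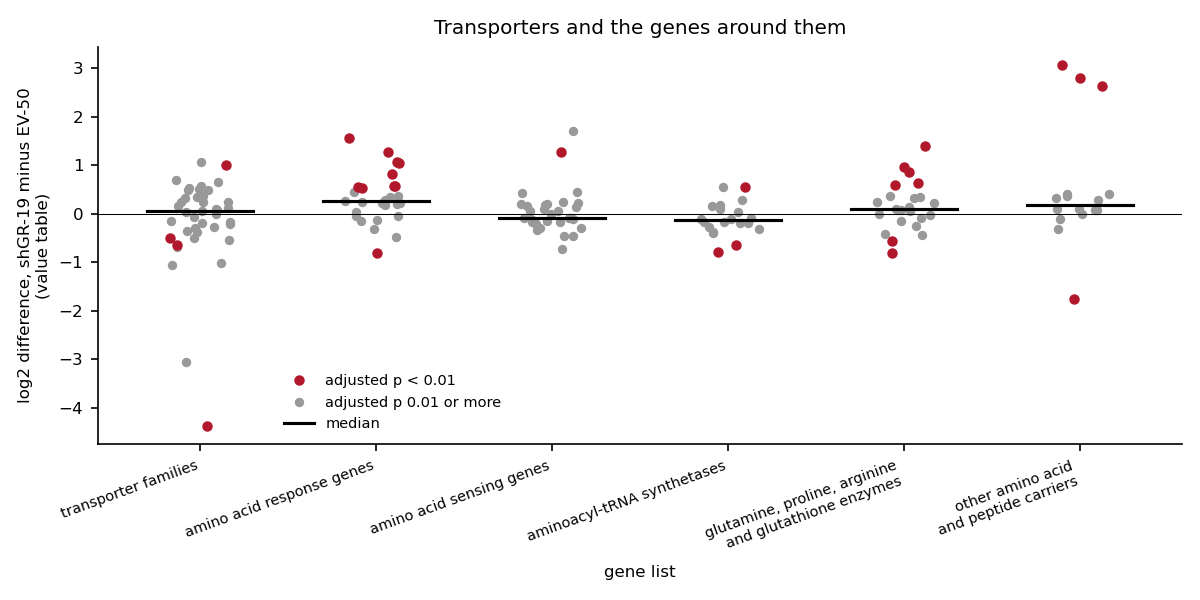
Log2 difference, shGR-19 minus EV-50, in the value table (vertical axis) for the kept genes of the transporter families and of 5 lists of genes around them, with called genes in red and the median of each list as a black line. The median of the amino acid response list is 0.27, that of the transporter families 0.044, and the called transporters lie on both sides of 0.

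Of 9 kept mesenchymal genes 4 were higher in the value table at an adjusted p below 0.01, against 5.53% of all kept probes. They were Col1a2 by 3.27, Pdgfrb by 2.03, Vim by 1.82 and Pdgfra by 1.16. Pdgfra was kept only through shGR-19, so that its place in this count is no support for the list. None was lower at this level, against 6.04% of all kept probes, and Fn1 differed by -0.64 (adjusted p = 0.0369). The summed signal of all 13 mesenchymal genes, relative to the 75th percentile of each array, was 26.5 and 53.1 in EV-50 and 26.7 and 89 in shGR-19, and Dcn was well above background on no array. For 14 epithelial genes the sum was 1040 and 1000 in EV-50 and 1080 and 869 in shGR-19. Of the 13 with a kept probe, 1 was lower in the table at an adjusted p below 0.01, against 6.04% of all kept probes. At the same level 0 were higher, against 5.53%. Differences were above 0 for 4 of the 13 and below 0 for 9, and Krt14 had the lowest, at -1.13. No kept marker of immune cells, endothelium or adipocytes was called, and Ptprc, Pecam1 and Adipoq were well above background on no array. The part of these differences in the differences of the transporters was not tested.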

How the data were processed

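Gene expression in 2 clones of EPH-4 cells, EV-50 and shGR-19, was read on 2 arrays per line, all on 1 slide and in 1 scan. The authors deposited the intensity of each spot, background-subtracted by Agilent Feature Extraction 10.5.1.1 and not scaled between arrays. They also deposited log2 values made in GeneSpring, in which each probe is centred on its median over the columns; what was done before the centring is not fully given in the sources used here. From the intensities, log2 minus the 75th percentile of each array was taken, with control and outlier spots left out and spots of a probe averaged. No spot was saturated. A probe was kept where it stood well above background on the 2 arrays of EV-50, of shGR-19 or of both (24443 of 41174, of which 24441 could be tested in the scanner files).

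Both forms were fitted with limma 3.58.1 in R 4.3.3 (lmFit, eBayes), with Benjamini-Hochberg adjustment over all kept probes. A gene was called at an adjusted p below 0.01, and a count with a fold limit needed more than 2-fold. An exact permutation of 2 against 2 cannot give a p below 0.333. Precision is limited by the number of arrays. The brightest kept probe stood for a gene. Values on each array are given for members called with more than 2-fold and for Slc3a2, Slc7a5, Slc7a11, Slc7a1, Slc1a5, Slc1a4, Slc38a1, Slc38a2 and Slc6a6; others are given by role, with the ends of each group, and genes of other lists where they passed 2-fold. Slc6a14 was added after its values were seen, and members at an adjusted p below 0.05 were named. One member is not reported here by name. The members and lists were chosen with earlier results of these data known. The fit was tested on simulated data. Alternatives were another background correction (normexp, offset 50), quantile normalization, the percentile over detected probes, other filters, the replicate number as a block, a robust prior that follows intensity (statmod 1.5.0), leaving out single arrays, other thresholds and the mean of a gene's probes. A centring of the table's columns was added after the data were seen, as were the block, the left-out arrays and the scanner files for the other lists.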

Additional observations from a re-analysis of the deposited data

How the results depend on the processing

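In the scanner files 0 member probes passed 2-fold and an adjusted p below 0.01 under each alternative fitted to them, and the value table in their place gave 2. In the value table the 2 became 0 with all probes kept, in a fit that called 43 of all 41174 probes. The count was 5 with an intensity trend and robust prior, in a fit that called 522 probes higher and 680 lower on the whole array. With columns centred it was 1, where 452 probes were higher and 592 lower. The main fit called 457 higher and 585 lower. With no fold limit the count was 4, where 2827 of all 24443 probes were called. It was 4 at an unadjusted p below 0.01 and 6 at an adjusted p below 0.05. For these 2 thresholds with the fold limit, the share over all probes was not counted. With an array left out, 1 line is left with 1 array, and no count is read from such a fit. The labels do not say what samples of the same replicate number share. Deviations of same-numbered samples correlated at 0.574 in the scanner files and 0.0553 in the table, over 2 pairs. In the scanner files same-numbered arrays also lay closer (SDs of 0.376 and 0.569) than the arrays of 1 line (0.691 and 0.730). With the replicate number as a block the count in the table was 0, in a fit that called 0 of all 24443 probes. The 25 genes called in the other lists became 0 with all probes kept, 0 with the scanner files and 0 with the block. On the whole array these fits called 43, 0 and 0 probes. The cause of these shifts was not tested.

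Directions in the value table were kept under each alternative for the 20 members followed there, but most alternatives could not turn them. The columns of the 2 lines did not overlap for these members, so that leaving out a column keeps the sign. Other filters, the prior and the block leave the difference as it was. Only centring the columns and averaging the probes of a gene could have turned a sign. In the scanner files 7 of 10 turned with an array left out. The range was -0.030 to 0.47 for Slc3a2, -0.0061 to 1.44 for Slc7a11, -0.28 to 0.79 for Slc7a1, -0.84 to 0.34 for Slc1a5, -0.41 to 0.064 for Slc38a2, -0.34 to 0.56 for Slc6a6 and -3.46 to 0.0017 for Slc7a4. With only 2 arrays per line, a missing call does not show that a gene did not differ.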

Other observations

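Some members with no call had 1 or 2 scanner arrays that stood apart, which were picked out after their values were seen. Slc6a7, a proline transporter, read -3.15 and -2.87 on the arrays labelled replicate 1 of EV-50 and shGR-19 and -0.52 and -0.73 on those labelled replicate 2, while its values in the table stayed between -0.07 and 0.15. Rragb, a GTPase of the amino acid sensing list, differed by 1.70 in the table without passing (adjusted p = 0.0113), with 0.045 and 2.02 in the scanner pairs labelled replicate 1 and 2.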
